A study of Rattus norvegicus with 2 samples.

Results

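The fragments described here are the probe-dense 1 Mb fragments of the rat autosomes. Chromosomes 1 to 20 of the assembly rn4 were divided from their first base into non-overlapping fragments of 1 Mb, and a fragment was taken as probe-dense when it held more than 120 distinct probes once controls and outlier-flagged spots had been removed. Of the 2570 autosomal fragments with a probe, 462 met this rule, and 2108 did not. The rule counted probes and used no measured ratio. The 8-oxoG profile was taken in kidneys of untreated male Wistar rats, sacrificed when 5 weeks old and described as normal, and 2 rats were hybridised on 1 array each as biological replicates of a single group. On each array, DNA precipitated with an antibody against 8-oxoG was labelled with Cy5 and input DNA without precipitation with Cy3, with 800 ng of DNA per labelling, and the dyes were not swapped. A difference between dyes and a difference between precipitated and input DNA therefore cannot be told apart.

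When reactive oxygen species attack DNA, guanine is the base most easily oxidised, and 8-oxoguanine (8-oxoG) is a product of this reaction. Mispairing of 8-oxoG with adenine promotes G to T changes. Cells remove the oxidised base mainly by base excision repair that starts with the glycosylase OGG1. The kidney depends on oxidative metabolism, above all in its tubules, and is a classical organ for the study of oxidative DNA damage.

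The level of a fragment was the mean of log2(IP/input) over its probes, after each array was centred on its median. A level of 0 thus stands for the array median, not for DNA free of 8-oxoG, and a level is relative to the other probes of the same array. On replicate 2 the mean of single probes lay below their median. It was -0.16 against -0.05 in the probe-dense fragments and -0.06 against 0.02 in the other autosomal ones. Counts and calls below 0 include this offset between mean and median. With 2 arrays, their number limits the precision of each level. The 462 probe-dense fragments held between 121 and 218 probes, with a median of 139 and quartiles of 128.2 and 155, against a median of 71 in the other autosomal fragments. They made up 18.0% of the autosomal fragments and carried 66423 probes, or 30.2% of the autosomal probes. Neighbouring probes in a probe-dense fragment started a median of 5446 bases apart, against 11631 bases in the others.

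8-oxoG levels were low in most probe-dense fragments. Their mean level was -0.12 on replicate 1 and -0.16 on replicate 2, or -0.14 ± 0.03 (SD, n = 2). The other autosomal fragments had means of 0.07 on replicate 1 and -0.03 on replicate 2. Both rats thus showed a lower mean in the probe-dense fragments, by -0.19 on replicate 1 and -0.13 on replicate 2, which is a difference of -0.16 ± 0.05 (SD, n = 2). The exact two-sided sign-flip test over the 2 arrays gave p = 0.5 for the mean level and p = 0.5 for the difference, and 0.5 is the smallest p that 2 arrays allow. With normexp background correction of the median signals and an offset of 50, the difference shrank to -0.02, with -0.04 on replicate 1 and -0.0057 on replicate 2, and the mean level to -0.07. The offset and the correction were also run apart, which was chosen after seeing the data. Normexp without the offset gave a difference of -0.03, and the offset of 50 on the processed intensities, without normexp, gave -0.08. Normexp started from signals before dye normalization. Without dye normalization alone the difference was -0.17, with -0.20 on replicate 1 and -0.14 on replicate 2. The other steps that normexp replaced are not separated further. The mean level was also -0.07 when each fragment was summarised by the median of its probes.

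The levels of the probe-dense fragments were not spread evenly around their mean. On replicate 1 the median was -0.19, the quartiles were -0.29 and -0.02, and the range ran from -0.53 to 0.66. On replicate 2 the median was -0.18, the quartiles were -0.27 and -0.07, and the range ran from -0.60 to 0.42. A large body of fragments at moderately negative levels was therefore accompanied by a tail of high fragments, and the upper tail reached farther on replicate 1. Averaged over both arrays, the SD over the probe-dense fragments was 0.19, against 0.27 over the other autosomal fragments.

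Beyond 120 probes the level no longer followed the number of probes. Fragments with 121 to 140 probes had means of -0.13 on replicate 1 and -0.17 on replicate 2, those with 141 to 160 probes -0.11 and -0.14, and those with 161 to 218 probes -0.13 and -0.14. Within the 462 fragments, Pearson's r between level and number of probes was 0.03 on replicate 1 and 0.11 on replicate 2, across fragments that share an array and are not replicates. In the 2108 other fragments it was -0.42 and -0.34. Below the threshold the means rose step by step with fewer probes, from -0.08 and -0.14 at 101 to 120 probes to 0.24 and 0.09 at 40 to 60 probes. The probe-dense fragments were lower than those with 101 to 120 probes by -0.04 on replicate 1 and -0.02 on replicate 2. Against the 108 probe-sparse fragments, with under 40 probes, the difference was -0.38 on replicate 1 and -0.25 on replicate 2, with a mean of -0.31 ± 0.09 (SD, n = 2) and p = 0.5 in the exact sign-flip test. The means thus still fell across the threshold of 120 probes, from -0.08 and -0.14 at 101 to 120 probes to -0.13 and -0.17 at 121 to 140, and did not fall further beyond 140.

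**Figure D1:**
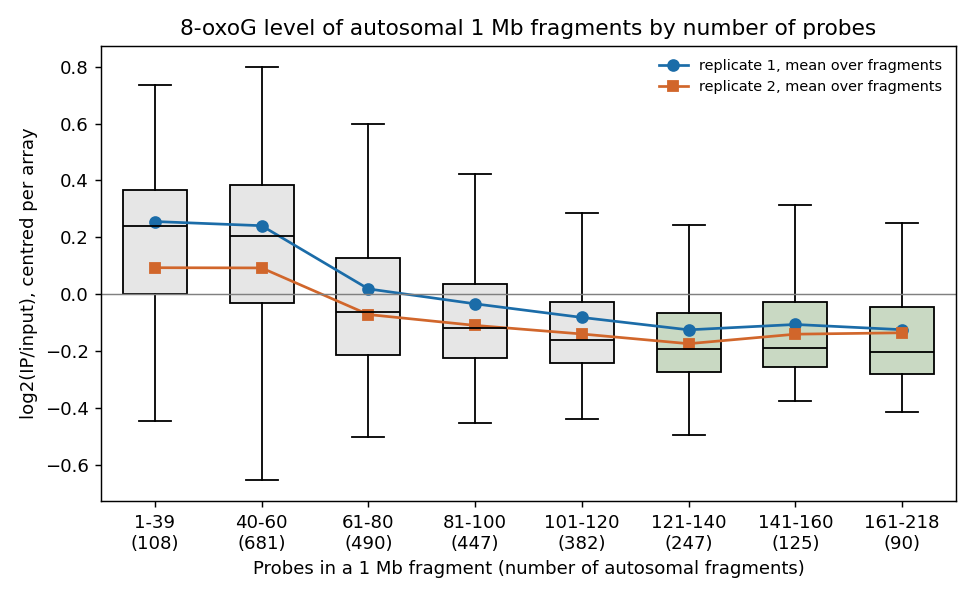
Boxes show the median and quartiles of the level (log2(IP/input), mean of both arrays) over autosomal 1 Mb fragments grouped by number of probes, whiskers reach the farthest fragment within 1.5 times the interquartile range, and fragments beyond them are not drawn. Circles and squares are the means on replicate 1 and replicate 2, and the 3 green boxes hold the probe-dense fragments, with medians between -0.19 and -0.20.

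On either side of the threshold, single fragments with nearly the same number of probes had different levels. Just inside, with 121 probes each, chr1:35000001-36000000 had levels of -0.03 on replicate 1 and 0.12 on replicate 2, chr1:263000001-264000000 had -0.35 and -0.43, and chr2:46000001-47000000 had 0.25 and 0.07. Just outside, with 120 probes each, chr1:4000001-5000000 had 0.19 and -0.09, chr1:154000001-155000000 had -0.19 and -0.04, and chr1:252000001-253000000 had -0.26 and -0.31. Over all 12 fragments with 121 probes the means were -0.19 on replicate 1 and -0.19 on replicate 2, and over all 17 fragments with 120 probes they were -0.18 and -0.20. The 12 ranged from -0.37 to 0.25 on replicate 1 and from -0.43 to 0.12 on replicate 2, and the 17 from -0.42 to 0.19 and from -0.39 to -0.0043. Their ranges thus overlapped widely on both arrays, with the highest value of either array just inside the threshold.

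Most probe-dense fragments were below the array median in both rats. Of the 462 fragments, 345 (74.7%) were below 0 on both arrays, against 48.8% of all 2731 fragments of chromosomes 1 to 20 and X. Another 69 (14.9%) were above 0 on both arrays, against 32.8% of all fragments, and 48 lay on different sides of 0. In limma's test of the averaged level against 0 (Benjamini-Hochberg adjusted p under 0.05 over all 2731 fragments), 156 probe-dense fragments (33.8%) were called below 0, against 20.4% of all fragments. Only 27 (5.84%) were called above 0, against 20.9% of all fragments. All 183 called fragments had the sign of the call on both arrays. Calls began at mean levels of 0.24 and -0.24, and probe-dense fragments differed between the arrays by at most 0.38. With such differences the same sign on both arrays followed from the call and is no separate evidence for it. In the other autosomal fragments, 17.3% were called below and 25.0% above 0. Calls below 0 were thus more frequent in the probe-dense fragments in this setting, but not in each alternative.

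The number of calls depended on how the spread between arrays and the ratio were treated. In limma the pooled spread gave each fragment the same standard error of 0.10, although the SD of the difference between arrays was 0.14 over the probe-dense fragments and 0.19 over the others. The limma p of a fragment thus depended on its mean level alone, not on its own spread between the 2 rats. With a prior spread that follows the number of probes, 268 probe-dense fragments (58.0%, against 20.4% of the others) were called below and 47 (10.2%, against 21.9%) above 0, and these included all 156 and 27 of the main calls. Normexp background correction with the offset left 10 (2.16%) called below and 0 above 0 by limma, whereas 89 (4.22%) of the other autosomal fragments were called below 0, so that calls below 0 were then less frequent in the probe-dense ones. In the same setting, the counts below 0 at an unadjusted p under 0.05 were 182 (39.4%) and 608 (28.8%). No probe-dense fragment passed above 0, against 21 (0.996%) of the others. Calls above 0 by limma were rare in the others too, at 6 (0.285%). Without the offset, normexp left 5 (1.08%, against 2.13% of the others) below 0, and the offset alone left 108 (23.4%, against 13.99%). With the median over probes 49 (10.6%) were called below 0, against 8.02% of the others, and 32 (6.93%) above 0, against 25.0%. At an unadjusted p under 0.05 the shares below 0 with the median were 25.3% and 13.6%.

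**Figure D2:**
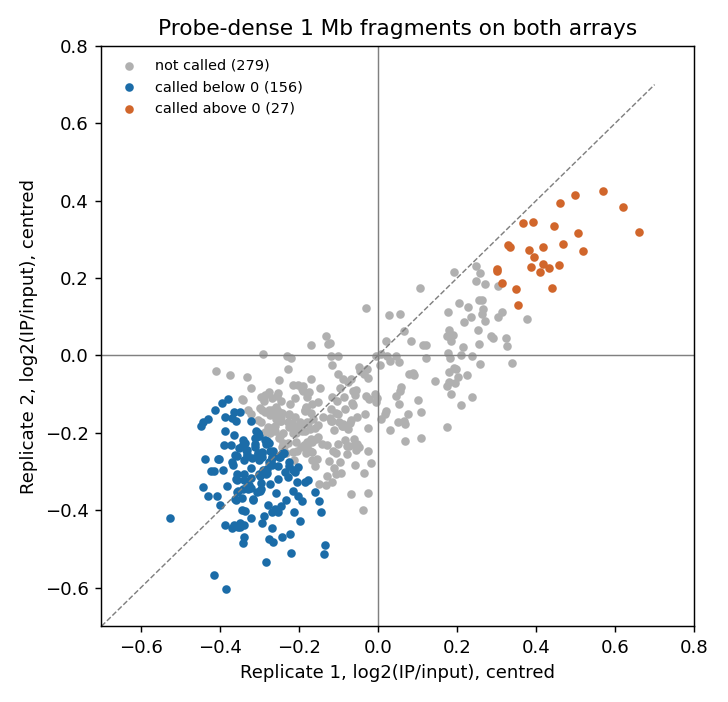
Each point is a probe-dense 1 Mb fragment, with its level (log2(IP/input), centred) on replicate 1 on the horizontal axis and on replicate 2 on the vertical axis. Colours give the limma calls, with 156 fragments below 0, 27 above 0 and 279 not called, and the dashed line marks equal levels on both arrays.

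The points in the plot of both arrays lie along the dashed line, with the called fragments at its ends. Levels of the probe-dense fragments had a Pearson correlation of 0.79 and a Spearman correlation of 0.67 between the rats, a description of fragments hybridised on the same 2 arrays. Across the other autosomal fragments they were 0.80 and 0.80, so the probe-dense ones agreed no better by Pearson's r and less well by rank. Among fragments with 161 to 218 probes Pearson's r was 0.87, and among those with 121 to 140 probes it was 0.75. Below the threshold it ran from 0.63 at 1 to 39 probes to 0.81 at 81 to 100 probes. Replicate 1 was higher in 275 of the 462 fragments, by a mean of 0.04 over all of them. The SD of this difference was 0.14. Alternate probes of each fragment were also taken as separate sets, so that levels could be compared that share neither probe nor array, and the level of the odd probes on replicate 1 had an r of 0.63 with that of the even probes on replicate 2. The reverse split gave 0.60. Across the other autosomal fragments these values were 0.59 and 0.57.

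The 8 highest probe-dense fragments lay on chromosomes 1, 3, 8, 11 and 13. The fragment chr3:72000001-73000000 had levels of 0.62 on replicate 1 and 0.38 on replicate 2, and chr3:70000001-71000000 had 0.57 and 0.42. Their neighbour chr3:71000001-72000000 had 0.45 and 0.33, so that 3 of the 8 adjoin each other. Levels of 0.66 and 0.32 were measured in chr13:53000001-54000000, the largest value of replicate 1. At the start of chromosome 11, chr11:1-1000000 had 0.50 and 0.41. Chromosome 1 held chr1:216000001-217000000, with 0.46 and 0.39, and chr1:161000001-162000000, with 0.51 and 0.32. The last of the 8, chr8:41000001-42000000, had 0.52 and 0.27. Each of them was higher on replicate 1, and their means lay between 0.39 and 0.50, with limma adjusted p from 4.51e-05 to 0.00154. The next fragment lay only 0.01 below the last of them, so neither their order nor the limit of the group is resolved by 2 arrays. With normexp background correction and an offset of 50 their means fell to between 0.0039 and 0.06, and none was called, also at an unadjusted p under 0.05. Without the offset they lay between 0.02 and 0.08, again with none called, and with the offset alone between 0.17 and 0.23, with all 8 called.

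The 8 lowest probe-dense fragments were scattered over 7 chromosomes. The fragment chr1:205000001-206000000 had levels of -0.39 on replicate 1 and -0.60 on replicate 2, and chr18:71000001-72000000 had -0.41 and -0.57. On chromosome 10, chr10:76000001-77000000 had -0.53 and -0.42 and chr10:90000001-91000000 had -0.34 and -0.48. Among these 4, chr10:76000001-77000000 alone was lower on replicate 1. Levels of -0.39 and -0.44 were found in chr12:45000001-46000000, and of -0.28 and -0.53 in chr5:63000001-64000000. The fragment chr9:90000001-91000000 had -0.37 and -0.45, and chr2:192000001-193000000 had -0.34 and -0.47. Their means ran from -0.49 to -0.41, with limma adjusted p from 5.82e-05 to 0.00101, and the next fragment lay only 0.0038 above the last, so their order is not resolved either. Normexp background correction with the offset brought them to between -0.16 and -0.09, all still negative, and 1 of the 8 was called. The offset alone brought them to between -0.24 and -0.17, and all 8 were called.

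The fragments with the most probes included high and low levels. The fragment chr5:172000001-173000000, with 218 probes, had -0.29 on replicate 1 and -0.30 on replicate 2 and was called below 0 (limma adjusted p 0.0169). With 216 probes, chr20:4000001-5000000 had -0.05 and -0.03 and was not called. Levels of -0.06 and -0.23 were measured in chr7:137000001-138000000, which holds 209 probes and was not called. The fragment chr1:161000001-162000000, also with 209 probes, is among the 8 highest. With 208 probes, chr3:69000001-70000000 had 0.37 and 0.34 and was called above 0 (limma adjusted p 0.00418). Of these 5 fragments, 2 were thus called above 0, 1 below 0 and 2 in neither direction.

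Some probe-dense fragments differed widely between the rats. The fragment chr1:265000001-266000000 had -0.14 on replicate 1 and -0.51 on replicate 2, the largest difference with replicate 1 higher. In the other direction, chr10:107000001-108000000 had -0.41 on replicate 1 and -0.04 on replicate 2. Both were below 0 in both rats, but their SDs of 0.27 and 0.26 (n = 2) approach or exceed the size of their means of -0.33 and -0.23. With the standard error that limma gave to each fragment alike, the first was still called below 0 (limma adjusted p 0.00854). The second was not called (limma adjusted p 0.0684).

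Each autosome held probe-dense fragments, from 10 on chromosome 12 to 50 on chromosome 1. Chromosome 10 held 44, chromosome 4 held 43 and chromosome 3 held 39. There were 27 on chromosome 8, 26 on chromosome 7, 24 on each of chromosomes 5 and 14, 21 on chromosome 6 and 20 on chromosome 13. The remaining chromosomes had between 12 and 19. In relation to their number of fragments, chromosome 10 was richest in probe-dense fragments, with 39.6% of its 111 fragments, and chromosome 2 was poorest, with 7.34% of its 259. Chromosome X had 9 fragments with more than 120 probes, which the rule leaves out.

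On each of the 20 chromosomes the mean level of the probe-dense fragments was below 0 in both rats. The lowest means were -0.26 on replicate 1 and -0.23 on replicate 2 on chromosome 19, -0.27 and -0.21 on chromosome 12, and -0.24 and -0.24 on chromosome 5. On chromosome 10 the means were -0.23 and -0.22. The highest were -0.01 and -0.09 on chromosome 11, and -0.05 and -0.07 on chromosome 3. On chromosomes 10, 12, 16 and 19, none of the probe-dense fragments was above 0 on both arrays. Chromosome 3, with 39 of the 462 probe-dense fragments, had 12 above 0 on both arrays and 7 of the 27 called above 0. Of these 12 and 7, a single run of 9 adjoining fragments from 67 to 76 Mb held 7 and 5. Chromosome 8, with 27 probe-dense fragments, had 4 of the 27 called above 0, and chromosome 13, with 20, had 3. Over all 462, 14.9% were above 0 on both arrays and 5.84% were called above 0, against 32.8% and 20.9% of all 2731 fragments. Differences between chromosomes in these counts were not tested.

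Compared with the other fragments of the same chromosome, the probe-dense ones were lower in both rats on 19 of 20 chromosomes. Averaged over both arrays, the difference was most negative on chromosome 5, with -0.38 on replicate 1 and -0.23 on replicate 2. It was -0.27 and -0.23 on chromosome 16, and -0.30 and -0.21 on chromosome 15. The exception was chromosome 3, where the difference was -0.09 on replicate 1 and 0.0075 on replicate 2. On chromosome 8 it was -0.03 and -0.0020, and on chromosome 17 it was -0.03 and -0.03. With equal weight for each chromosome the difference was -0.18 on replicate 1 and -0.12 on replicate 2, or -0.15 ± 0.04 (SD, n = 2). Within chromosomes the difference was thus about as large as between all fragments.

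**Figure D3:**
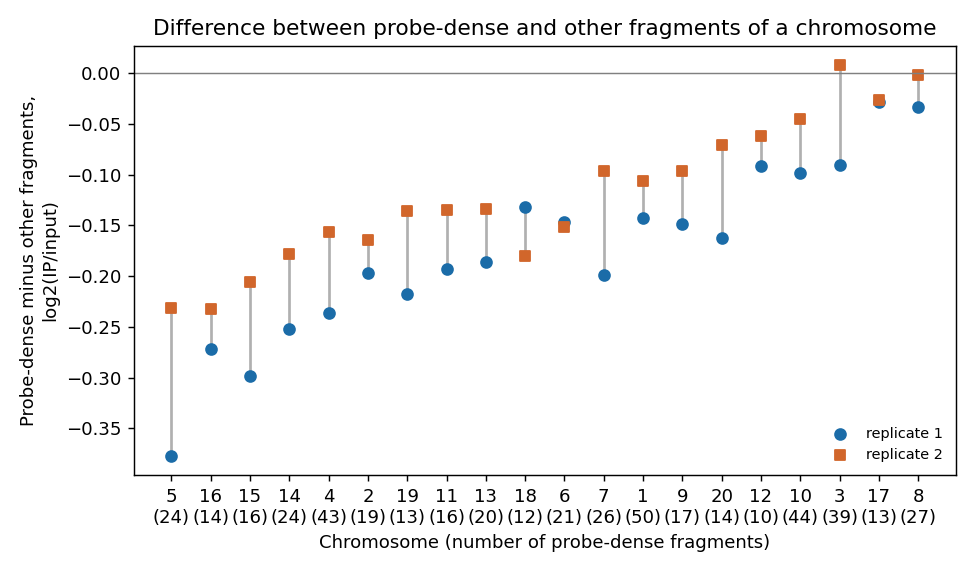
For each autosome, ordered by the mean of both arrays, the points give the mean level (log2(IP/input)) of the probe-dense fragments minus that of the other fragments, as circles for replicate 1 and squares for replicate 2. Numbers in parentheses count the probe-dense fragments, and only the square of chromosome 3, at 0.0075, lies above 0.

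The difference was smaller between adjoining fragments. For 376 probe-dense fragments at least 1 adjoining fragment was not probe-dense, with a median of 88 probes in these neighbours. The probe-dense fragments had means of -0.11 on replicate 1 and -0.16 on replicate 2, and their neighbours -0.05 and -0.12. The difference was -0.06 on replicate 1 and -0.04 on replicate 2, or -0.05 ± 0.02 (SD, n = 2; exact sign-flip p = 0.5, the smallest possible). Of the 376, 162 (43.1%) were lower than their neighbours on both arrays, 88 (23.4%) were higher on both and 126 differed in sign between the arrays. Across the 376, the level of a fragment and that of its neighbours had an r of 0.66 on replicate 1 and 0.46 on replicate 2, within the same array. With normexp background correction and an offset of 50, a setting chosen after seeing the data for this comparison, the difference was -0.0060, with -0.01 on replicate 1 and 0.00093 on replicate 2. Normexp without the offset gave -0.0089 and the offset alone -0.03.

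The 462 fragments formed 280 runs of adjoining probe-dense fragments. A total of 183 fragments stood alone, and the remaining 279 formed 97 runs of 2 or more. In 70 of these 97 runs the fragments were all below 0 on both arrays or all above 0 on both. Most of these 70 runs were below 0, as were 74.7% of the 462 fragments on both arrays. No such share was computed for runs of other fragments. Another 8 runs held fragments above 0 on both arrays together with fragments below 0 on both.

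The longest run comprised 9 fragments on chromosome 3, from 67 to 76 Mb, with 1492 probes and a mean of 0.28 on replicate 1 and 0.18 on replicate 2. Its first fragment, chr3:67000001-68000000, had levels of -0.03 and -0.11, and the next, chr3:68000001-69000000, had 0.07 and 0.06. The 5 fragments that follow, from 69 to 74 Mb, were each called above 0 in the main setting. They include 3 of the 8 highest fragments, and chr3:73000001-74000000 at their end had 0.43 on replicate 1 and 0.23 on replicate 2. The level then dropped to 0.27 and 0.09 in chr3:74000001-75000000 and to -0.20 and -0.18 in chr3:75000001-76000000. High levels were not limited to the run, since the fragment from 65 to 66 Mb, with 41 probes, had 0.56 on replicate 1 and 0.65 on replicate 2. Input signals were dim in the 5 called fragments, with a median input intensity from 27.2 to 40.7 on replicate 1 and from 18.8 to 30.2 on replicate 2. In chr3:75000001-76000000 it was 113 and 86.6.

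**Figure D4:**
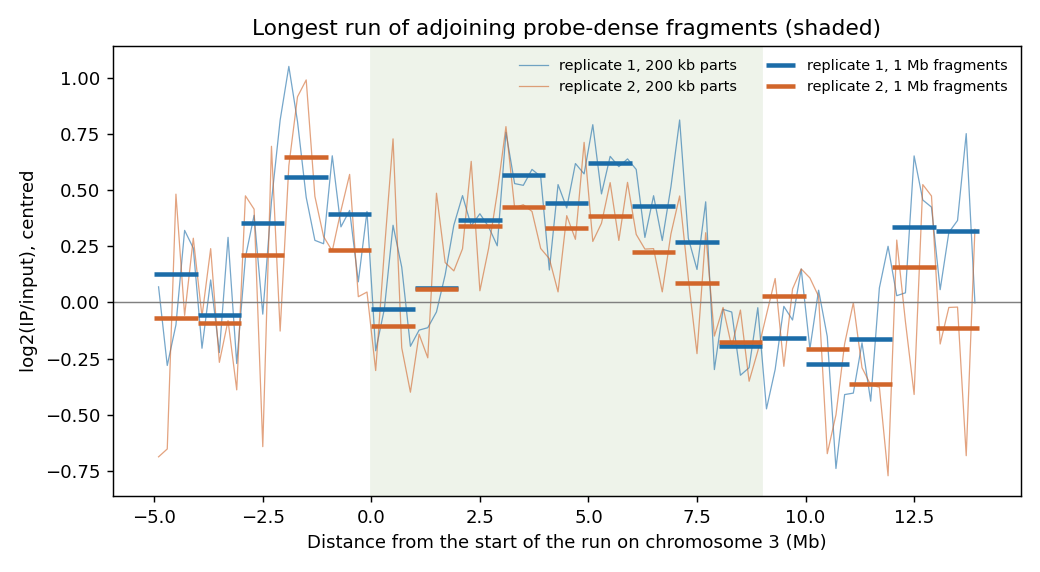
Levels (log2(IP/input), centred) are plotted against distance from the start of the run of 9 probe-dense fragments on chromosome 3, which is shaded. Thick bars are 1 Mb fragments and thin lines are 200 kb parts, in blue for replicate 1 and orange for replicate 2, and the 5 fragments between 2 and 7 Mb of distance lie above 0.2 on both arrays.

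The next runs, of 7 fragments each, lay on chromosomes 1 and 20. On chromosome 1 from 159 to 166 Mb the mean was 0.19 on replicate 1 and 0.02 on replicate 2. Its fragments ranged from -0.25 to 0.51 on replicate 1 and from -0.15 to 0.32 on replicate 2, with chr1:161000001-162000000 at the top and the only one called. The lowest was chr1:159000001-160000000, at the edge of the run, with -0.25 and -0.15. In the last 3 fragments of this run, from 163 to 166 Mb, replicate 1 was above 0 and replicate 2 below 0, at -0.10, -0.06 and -0.0016. The median of replicate 2 before centring was 0.06, so the side of 0 of the last 2 of them depends on the centring. A difference between the rats was not tested there. On chromosome 20 from 3 to 10 Mb the mean was -0.22 on replicate 1 and -0.13 on replicate 2. Of its 7 fragments 6 were below 0 on both arrays, and chr20:5000001-6000000 had -0.17 on replicate 1 and 0.03 on replicate 2. In this run, chr20:6000001-7000000, with -0.27 and -0.40, and chr20:8000001-9000000, with -0.30 and -0.21, were called below 0. The 4 runs of 6 fragments, on chromosomes 1, 7, 10 and 16, had each of their fragments below 0 on both arrays, with run means from -0.20 to -0.27 on replicate 1 and from -0.18 to -0.34 on replicate 2.

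Within the probe-dense fragments, levels varied from part to part. When each was divided into parts of 200 kb, 460 had probes in all 5 parts, with a median of 29 probes per part. In 205 of them (44.6%) the mean of both arrays was below 0 in all 5 parts, in 34 (7.39%) it was above 0 in all 5, and in 221 the sign was mixed. The other autosomal fragments with 5 parts were below 0 throughout in 14.7% and above 0 throughout in 18.6%, but their parts held a median of 11 probes and so scatter more. The highest and lowest part of a probe-dense fragment differed by a median of 0.43. The deviations of the parts from the level of their fragment had an r of 0.38 between the rats, against 0.41 in the other autosomal fragments. The pattern inside a fragment was thus shared to some extent. A part holds the same probes on both arrays, and effects of single probes were not separated from it. Single probes of a probe-dense fragment had a median SD of 0.90 on replicate 1 and 1.21 on replicate 2, which left a standard error of the fragment's mean of 0.08 and 0.10 from the scatter of its probes.

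Along the chromosomes, the probe-dense fragments were not confined to either end. Of the 462, 216 (46.8%) lay in the first and 246 (53.2%) in the last 50% of their chromosome. Within 3 Mb of a chromosome end there were 44 (9.52%), against 3.61% of the other fragments. These 44 had means of -0.08 on replicate 1 and -0.16 on replicate 2, and the remaining probe-dense fragments -0.12 and -0.16. The 76 other fragments within 3 Mb of an end had 0.15 and 0.0044. Near the chromosome ends, too, the probe-dense fragments were thus the lower ones in both rats.

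The level of a probe-dense fragment went together with the brightness of its input signal. In the 27 fragments called above 0, the median input intensity was 46.3 on replicate 1 and 34.7 on replicate 2. In the 156 called below 0 it was 117 and 94.4. The fragments called above 0 thus had the dimmer input in both rats, and their IP intensity was also lower, at 76.4 and 49.4 against 89.7 and 75.8. A signal well above background in each channel of either array was found for 69.4% of their probes, against 80.2% in the fragments called below 0. These groups are defined by the level itself, of which the input is the denominator, and no test was made between them. Over all 462 fragments, r between level and log2 of the median input intensity was -0.73 on replicate 1 and -0.77 on replicate 2, against -0.70 and -0.65 over the other autosomal fragments. Between the arrays, r was -0.76 for the levels of replicate 2 and the input intensity of replicate 1, and -0.73 for the levels of replicate 1 and the input intensity of replicate 2, where level and input come from different arrays. In the other fragments these values were -0.64 and -0.70. Both arrays carry the same probes, so the swap of arrays does not make level and input independent of each other.

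**Figure D5:**
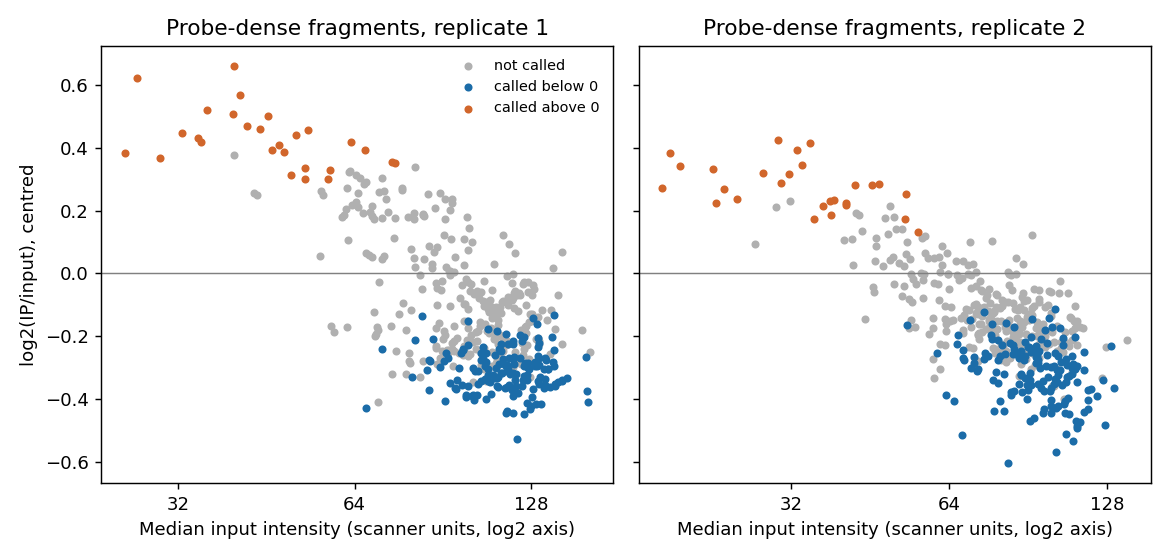
Each point is a probe-dense 1 Mb fragment, with the median processed input intensity of its probes on a log2 axis and its level (log2(IP/input), centred) on the same array, on replicate 1 at the left and replicate 2 at the right. Fragments called above 0 lie at input intensities from 25.9 to 75.0 on replicate 1, where those called below 0 lie between 66.9 and 160.1.

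Both channels were compared between the probe-dense and the other fragments. The median input intensity of single probes was 98.5 on replicate 1 and 77.8 on replicate 2 in the probe-dense fragments, against 90.0 and 70.9 in the others. The median IP intensity was 90.2 and 72.7, against 95.6 and 73.6. Probe-dense fragments thus had a brighter input and a dimmer IP signal in both rats. When all autosomal probes were divided into 10 equal groups by input intensity, probes of probe-dense fragments had the lower mean level in 10 of 10 groups on replicate 1 and in 8 of 10 on replicate 2. These groups are formed by the denominator of the level, so they are not independent of it, and the part of brightness was not tested. The difference averaged over the groups was -0.14 on replicate 1 and -0.08 on replicate 2, or -0.11 ± 0.04 (SD, n = 2). For all probes without the division the difference was -0.12 ± 0.04. Among the groups it was small in the brightest, at -0.0094 on replicate 1 and 0.01 on replicate 2. It was larger in the group of input intensities from 39.1 to 62.2 on replicate 1 and from 28.6 to 47.3 on replicate 2, at -0.27 and -0.16.

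Removal of the trend of the level on input brightness was chosen after seeing the data. The mean difference between probe-dense and other fragments was then -0.14, with -0.18 on replicate 1 and -0.10 on replicate 2, against -0.16 in the main setting. The calls were fewer, with 69 (14.9%, against 8.73% of the other fragments) below and 3 (0.649%, against 12.05%) above 0, of which 66 and 3 were also called in the main setting. The 3 are among the 8 highest fragments, whose means then lay between 0.20 and 0.34. The part of gene content and base composition in these levels was not tested.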

How the data were processed

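Per the file headers and the submitters' processing notes, the authors read each array with Agilent Feature Extraction 10.5.1.1 and deposited for each spot the processed intensity of both channels, with background subtracted, spatial trends removed and dyes matched by lowess. A log10 ratio of Cy5 over Cy3 and the intensities at earlier steps were deposited too. A log2 table deposited by the authors equals log2 of the processed ratios to within 6.2e-15 and is not centred, with medians of 0.01 and 0.06.

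Levels were computed as log2(IP/input) from processed intensities, leaving out controls and 305 outlier-flagged spots. Saturated spots were kept, spots of a probe were averaged, and each array was centred on the median of its 235872 probes. With limma 3.58.1 under R 4.3.3 (lmFit, eBayes, two-sided, Benjamini-Hochberg), first tested on simulated data, fragments were set against 0, and mean levels by exact sign-flip permutation. Other steps used Python 3.11.15, numpy 2.4.6 and pandas 2.3.3, and figures matplotlib 3.10.9. Normexp was run on the median signals with an offset of 50. Alternatives covered centring, background, dye normalization, filters, summary, probe number, grid, thinning, prior spread and call rule. The named fragments are the 8 highest and 8 lowest with the same sign on both arrays, the 5 with most probes, the 3 longest runs, 3 on each side of the threshold and the largest difference between arrays in each direction. Fragments named outside this rule were chosen after their values were seen. The rule and the lists were chosen with earlier results of these data known. Genes and sequences of the fragments were not analysed here, since no annotation or genome of rn4 was used, and lists planned on gene names were not run.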

Additional observations from a re-analysis of the deposited data

How the results depend on the processing

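The difference between probe-dense and other autosomal fragments was below 0 under each alternative run, and it moved beyond the spread between arrays with normexp background correction and an offset of 50, to -0.024. Added after seeing the data, normexp without the offset moved it to -0.031, and the offset of 50 on the processed intensities, without normexp, to -0.078. The mean level was also below 0 under each of them. It moved to -0.10 with the log ratio of Agilent and with the table of the authors, neither of which is centred, to -0.071 with normexp with and without the offset, to -0.061 with the offset alone, to -0.11 before dye normalization and to -0.074 with the median over probes. With normexp and the offset 10 fragments were called below 0 and 0 above 0 by limma, against 182 and 0 without adjustment of p. Of the other fragments, 6 (0.285%) were called above 0 in this setting. The share called below 0 was 2.16% in the probe-dense and 4.22% in the other fragments, the reverse of the main setting, but at an unadjusted p it was 39.4% against 28.8%. Without the offset 5 were called below (1.08%, against 2.13%) and 0 above 0, against 7 (0.332%) of the others above 0. The calls above 0 rose to 41 (8.87%) with the log ratio of Agilent, to 41 with the table of the authors and to 41 before dye normalization, against 30.2%, 30.5% and 27.8% of the others. The median over probes left 49 called below 0, or 10.6% against 8.02% of the others. A threshold of 100 probes gave 252 below (29.9%, against 15.6% of the remaining fragments) and 59 above 0 (6.99%, against 28.7%) among 844 fragments. One of 150 probes gave 46 (32.4%, against 19.6%) and 11 (7.75%, against 22.4%) among 142, as these thresholds change the number of fragments. A prior spread that follows the number of probes gave 268 and 47, and the rule of 0.25 or more from 0 in each rat, used instead of limma, gave 91 (19.7%, against 8.44% of the others) and 16 (3.46%, against 15.8%). Removal of the trend on input brightness, chosen after seeing the data, gave 69 and 3. The cause was not tested.

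The comparison of adjoining fragments and the count of chromosomes were run under alternatives chosen after seeing the data. The difference to adjoining fragments moved to -0.0060 with normexp and the offset, to -0.0089 without the offset and to -0.026 with the offset alone. The count of chromosomes with lower probe-dense fragments on both arrays, 19, became 14 with normexp, with or without the offset, and ranged from 18 to 20 otherwise.

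With single arrays, the mean level ranged from -0.16 to -0.12, the difference to the other fragments from -0.19 to -0.13 and that to adjoining fragments from -0.06 to -0.04. Calls were not run on a single array, where limma cannot estimate a spread. For the 42 named probe-dense fragments, 420 values were computed, of which 261 stayed within the spread between arrays and 159 moved beyond it. The sign changed in 17 values of 8 fragments, none of them called in the main setting, and normexp with the offset accounted for 5 of the changes. The 3 fragments just outside the threshold were not run under alternatives. No paired analysis was possible because both arrays form a single group. The planned comparison of probes with and without a gene name was not run. Dim probes are limited by signal over background, which was clear on each array and channel for 184406 of 235872 probes.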
